A study of Mus musculus with 12 samples.

Results

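Voltage-gated calcium channels open when a membrane depolarises and let calcium into the cell, and the pore itself is a single large alpha1 protein encoded by a Cacna1 gene. In neurons the Cav2 channels (Cacna1a, Cacna1b and Cacna1e) feed the calcium that triggers transmitter release, the L-type Cav1 channels (Cacna1c and Cacna1d) couple activity in the cell body and dendrites to signalling and gene expression, and the low-threshold T-type Cav3 channels (Cacna1g, Cacna1h and Cacna1i) shape burst firing. The 8 pore genes described here were picked by their symbols from the 46078 genes counted in E15.5 mouse brain. Measured by RNA-seq were brains of Nsd2 knockout (KO) and wild-type (WT) embryos on the C57BL/6 background, as 4 groups of 3 libraries: KO male, WT male, KO female and WT female. Nsd2, listed in the counts as Whsc1, encodes a histone H3 lysine 36 methyltransferase. The KO was made with CRISPR/Cas9 genome editing and was not limited to a cell type by a Cre driver. The study calls the libraries of a group biological replicates.

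The libraries held 55703865 to 58904269 counts in males and 40398665 to 59304196 in females. Whsc1 separated the genotypes as labelled, at 0.909 to 2.67 CPM (counts divided by the library total, adjusted by trimmed mean of M values, TMM, factors) in KO and 351 to 407 CPM in WT libraries. The 8 neuronal markers, all detected, summed to 5987 to 6588 CPM in KO and 6190 to 6592 CPM in WT brains, and the 6 progenitor markers summed to 936 to 1153 CPM in KO and 915 to 1115 CPM in WT brains. Hoxa5, a marker of hindbrain and spinal tissue, was over 1 CPM in 3 KO and 3 WT libraries and lower in the remaining ones, with 11 Hox markers summing to 0.480 to 206 CPM in KO and 0.889 to 223 CPM in WT brains. In bulk brain, fewer cells of a type and less RNA per cell cannot be told apart.

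The pore genes are long. On GRCm38 (GENCODE M21) Cacna1a lies at chr8:84388440-84640246 on the plus strand, Cacna1b at chr2:24603887-24763152, Cacna1e at chr1:154390731-154884501, Cacna1c at chr6:118587240-119196418, Cacna1d at chr14:30039939-30491455, Cacna1g at chr11:94408391-94474198 and Cacna1h at chr17:25374285-25433783 on the minus strand, and Cacna1i at chr15:80287238-80398279 on the plus strand. Their spans ran between 59.5 kb for Cacna1h and 609.2 kb for Cacna1c, against a median of 17.7 kb over protein-coding genes. Of the genes, 3 share exonic bases with a gene on the opposite strand: Cacna1a shares 435 bases with Gm16183, Cacna1d 589 bases with Chdh and Cacna1h 158 bases with Tpsg1. The strand setting of the counting is not given in the sources used here, and without strand the reads of such a pair cannot be told apart in the shared bases. All 3 partners were scarce, with Gm16183 at most 0.259 CPM in KO and 0.254 CPM in WT, Chdh at most 1.14 CPM in KO and 1.04 CPM in WT, and Tpsg1 at 0 in KO and at most 0.0337 CPM in WT libraries.

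Cacna1d, the gene with the lowest fold change described below, has a pair of annotated starts in RefSeq (GRCm38.p6), and their sequences are shown because gene-level counts add up transcripts of both. Each window runs 250 bases upstream to 50 bases downstream of the start, and capitals mark GGGCGG (or CCGCCC) in the inner window and TATAAA (or TTTATA) in the outer window.
Cacna1d inner start, chr14:30353437-30353736, minus strand: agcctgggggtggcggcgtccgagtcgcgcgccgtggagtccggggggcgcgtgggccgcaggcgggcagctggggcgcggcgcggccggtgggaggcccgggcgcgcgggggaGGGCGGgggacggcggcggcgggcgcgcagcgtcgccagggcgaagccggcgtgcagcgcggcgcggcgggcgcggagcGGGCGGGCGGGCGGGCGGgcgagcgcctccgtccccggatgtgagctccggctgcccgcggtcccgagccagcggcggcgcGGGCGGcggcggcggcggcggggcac
Cacna1d outer start, chr14:30491107-30491406, minus strand: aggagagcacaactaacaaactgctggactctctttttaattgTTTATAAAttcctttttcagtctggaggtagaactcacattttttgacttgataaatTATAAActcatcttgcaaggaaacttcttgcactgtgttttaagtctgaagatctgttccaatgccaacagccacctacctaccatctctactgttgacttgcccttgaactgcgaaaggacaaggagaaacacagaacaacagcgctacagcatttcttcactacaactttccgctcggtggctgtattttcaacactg
The inner window held 63 CG dinucleotides, 87.3% GC and 6 matches to GGGCGG, and the outer window 4 CG dinucleotides, 40.3% GC and 3 matches to TATAAA on either strand, some of them overlapping. Over the 32851 promoters of the table the median was 7 CG dinucleotides, 35.7% held a GGGCGG and 13.6% a TATAAA. Neither window held CACGTG, present in 7.15% of promoters, or TGACGTCA, present in 1.79%. A match is a description of the letters only.

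To examine how the loss of NSD2 bore on the pores, KO and WT brains were compared over both sexes with edgeR's quasi-likelihood test. Sex was a covariate, and p-values were adjusted by Benjamini-Hochberg over 19767 genes and Whsc1, with a threshold of 0.05. Cacna1a (Cav2.1, the P/Q-type pore) and Cacna1d (Cav1.3, an L-type pore) fell in KO brains, by 25.6% and 29.6%. None of the 8 genes was called higher, and the other 6 did not pass the test. All 8 fold changes lay below 0, against 49.3% over all genes tested, with a median log2 fold change of -0.29 against 0.00225 over all genes tested. Over all genes, 1.52% were called lower and 0.374% higher. At an unadjusted p under 0.05, 5 of the 8 were lower, against 7.9% of all genes. The plot of CPM by library shows all 8 genes in the 12 libraries.

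**Figure D1:**
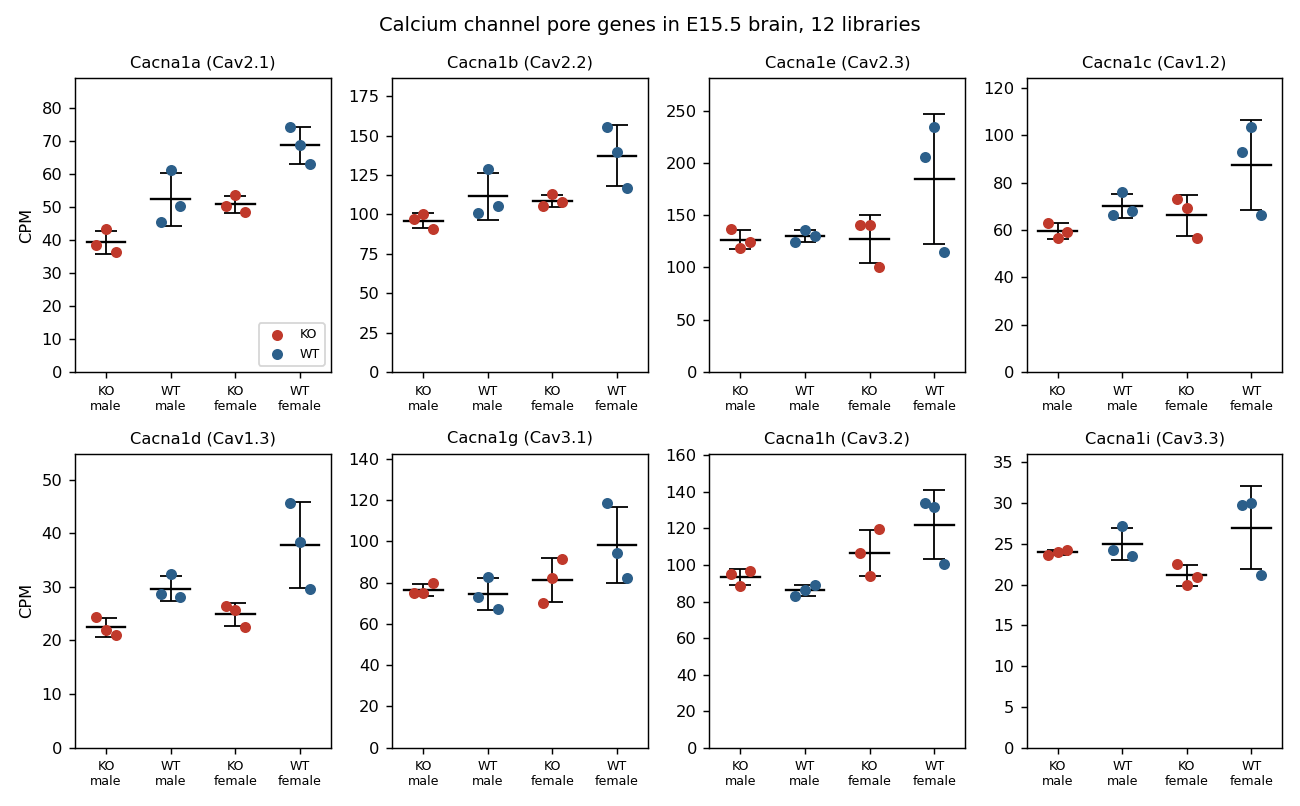
CPM of the 8 pore genes in each library (points), with the mean (line) and SD (error bars) of 3 libraries a group; KO in red, WT in blue, each axis starting at 0. Cacna1d is at 21.0 to 26.4 CPM in KO libraries, all below the 28.0 to 45.6 CPM of WT libraries, and the WT female points of Cacna1e run between 114.7 and 233.9 CPM.

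Among the Cav2 genes, Cacna1a encodes the pore of the channel that carries most release at many central synapses of the adult brain. It had 38.6, 43.3 and 36.4 CPM in KO males, against 45.6, 61.2 and 50.4 CPM in WT males. In females it had 50.3, 53.7 and 48.6 CPM in KO brains, against 74.2, 69.0 and 63.1 CPM in WT brains. Every KO library lay below every WT library of its own sex, while KO females and WT males overlapped. The log2 fold change over both sexes was -0.43 (SE 0.0743, n = 6 KO and 6 WT libraries, edgeR adjusted p = 0.00896). Within males it was -0.41 (SE 0.116, edgeR adjusted p = 0.249) and within females -0.44 (SE 0.0941, edgeR adjusted p = 0.312), and neither passed the test with 3 libraries a group. With the summed Hox level as a covariate these values were -0.20 in males (SE 0.125) and -0.38 in females (SE 0.0987).

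Cacna1b encodes Cav2.2, the N-type pore that works beside Cav2.1 at synaptic terminals. Its level was 96.9, 100.5 and 90.9 CPM in KO males, against 101.2, 128.6 and 105.1 CPM in WT males. KO females had 105.3, 112.8 and 107.9 CPM, against 155.3, 139.9 and 116.9 CPM in WT females. Again KO and WT did not overlap within either sex, but the change over both sexes missed the threshold (log2 fold change -0.28, SE 0.0773, edgeR adjusted p = 0.0974). Of the 23 alternative settings described below it passed in 1, DESeq2's Wald test (adjusted p = 0.0283).

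Cacna1e encodes Cav2.3, the R-type pore. In males the genotypes overlapped, with 136.5, 118.8 and 124.0 CPM in KO, against 124.4, 135.4 and 129.7 CPM in WT brains. KO females had 140.7, 140.7 and 100.3 CPM, against 205.3, 233.9 and 114.7 CPM in WT females. Cacna1e thus varied most of the 8 genes, over 1.22 log2 units, and 2 WT female libraries stood far above the rest. Its log2 fold change of -0.29 (SE 0.169, edgeR adjusted p = 0.493) had a 95% interval of -0.66 to 0.08. Without those 2 WT female libraries, a setting chosen after seeing the data, it was 0.03.

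Of the L-type genes, Cacna1d encodes a pore that opens at lower voltages than Cav1.2 and supports pacemaking in neurons. KO males had 24.4, 22.0 and 21.0 CPM, against 28.6, 32.4 and 28.0 CPM in WT males. Its values in females were 26.4, 25.8 and 22.4 CPM in KO, against 45.6, 38.4 and 29.6 CPM in WT brains. Cacna1d was the only one of the 8 genes for which all 6 KO libraries lay below all 6 WT libraries, which held for 1.24% of all genes tested. The log2 fold change was -0.51 over both sexes (SE 0.0985, edgeR adjusted p = 0.0178), -0.40 in males (SE 0.0922, edgeR adjusted p = 0.144) and -0.61 in females (SE 0.164, edgeR adjusted p = 0.465). The call was close to the threshold: leaving out KO female 3, WT male 2 or KO male 3 gave adjusted p of 0.0526, 0.0517 and 0.0620.

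Cacna1c encodes Cav1.2, the main L-type pore of brain and heart. Its level was 63.1, 56.6 and 59.1 CPM in KO males, against 66.4, 76.1 and 67.9 CPM in WT males, without overlap. KO females had 73.1, 69.2 and 56.5 CPM, against 92.8, 103.3 and 66.2 CPM in WT females, where the lowest WT library lay inside the KO range. The change missed the threshold (log2 fold change -0.32, SE 0.103, edgeR adjusted p = 0.169). Of the 23 alternative settings described below it passed in 2, without WT female 3 (edgeR adjusted p = 0.0467) and with the summed Hox level as a covariate (edgeR adjusted p = 0.0489).

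None of the T-type genes passed the test. Cacna1g (Cav3.1, abundant in thalamic relay neurons) had 75.0, 74.8 and 79.7 CPM in KO males, against 73.2, 82.6 and 67.2 CPM in WT males. KO females had 70.4, 82.4 and 91.4 CPM, against 118.6, 94.5 and 82.4 CPM in WT females. The genotypes overlapped in both sexes, and the log2 fold change was -0.12 (SE 0.0985, edgeR adjusted p = 0.662, 95% interval -0.33 to 0.09). Cacna1h (Cav3.2) had 95.1, 88.3 and 96.8 CPM in KO males, against 82.9, 86.1 and 89.2 CPM in WT males. In females it had 106.3, 94.3 and 119.6 CPM in KO brains, against 133.9, 131.9 and 100.5 CPM in WT brains. Its log2 fold change was the nearest to 0 of the 8 (-0.04, SE 0.0880, edgeR adjusted p = 0.895, 95% interval -0.23 to 0.15). Cacna1i (Cav3.3, the T-type pore known from reticular thalamic neurons) had 23.6, 24.0 and 24.3 CPM in KO males, against 24.3, 27.2 and 23.5 CPM in WT males. KO females had 22.5, 20.0 and 20.9 CPM, against 29.8, 30.0 and 21.1 CPM in WT females. Its log2 fold change of -0.21 (SE 0.0937, edgeR adjusted p = 0.348) had a 95% interval of -0.41 to -0.01.

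WT female 1 was the highest of the 12 libraries for 5 genes (Cacna1a, Cacna1b, Cacna1d, Cacna1g and Cacna1h) and WT female 2 for the other 3 (Cacna1c, Cacna1e and Cacna1i), while a KO library was the lowest for 6. These WT female libraries held 0.127 and 0.0741 CPM of Hoxa5, against 53.3 CPM in WT female 3, and their 5 thalamic markers summed to 498 and 613 CPM, above all other libraries. Leaving both out, a setting chosen after seeing the data that keeps a single WT female library, gave log2 fold changes of -0.37 for Cacna1a (adjusted p = 0.0496) and -0.35 for Cacna1d (adjusted p = 0.0474) and left both called. With the summed Hox level as a covariate over all 12 libraries, the log2 fold change was -0.42 for Cacna1a (adjusted p = 0.00890) and -0.51 for Cacna1d (adjusted p = 0.00564), and both were called. Among the 3 KO and 3 WT libraries under 1 CPM of Hoxa5, the log2 fold change was -0.39 for Cacna1a (adjusted p = 0.181) and -0.50 for Cacna1d (adjusted p = 0.272). Among the 3 KO and 3 WT libraries over 1 CPM, a subset added after seeing the data, it was -0.33 for Cacna1a (adjusted p = 0.593) and -0.37 for Cacna1d (adjusted p = 0.569). Both log2 fold changes lay below 0 in each subset, and neither gene passed the threshold there. Few genes did: 31 of 20427 were called lower and 6 higher under 1 CPM, and 3 of 20421 lower and 8 higher over 1 CPM. Each subset had 3 libraries a genotype, and what part tissue makeup had in these values was not tested. Thalamic markers also moved with genotype in males, where they summed to 403, 435 and 462 CPM in KO, against 313, 267 and 259 CPM in WT brains, and 4 of the 5 were higher at an unadjusted p under 0.05. In females they summed to 364, 371 and 435 CPM in KO, against 498, 613 and 325 CPM in WT brains. The 3 markers of oligodendrocyte precursors summed to 57.0 to 92.5 CPM in KO and 72.9 to 144 CPM in WT brains, and all 3 fold changes lay below 0 over both sexes, 2 of them at an unadjusted p under 0.05. All 4 blood markers were lower in males at an unadjusted p under 0.05, and all 4 lay above 0 in females. Over both sexes every marker of hindbrain and spinal tissue, cerebellum, microglia and meninges lay below 0, none at that limit. Those of progenitors, blood and choroid plexus all lay above 0, again none at that limit. WT male 2 was highest for markers of meninges (486 CPM), sensory ganglia (140 CPM) and choroid plexus (829 CPM). No gene of these marker lists passed the test after adjustment, and their part in the differences of the pore genes was not tested.

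**Figure D2:**
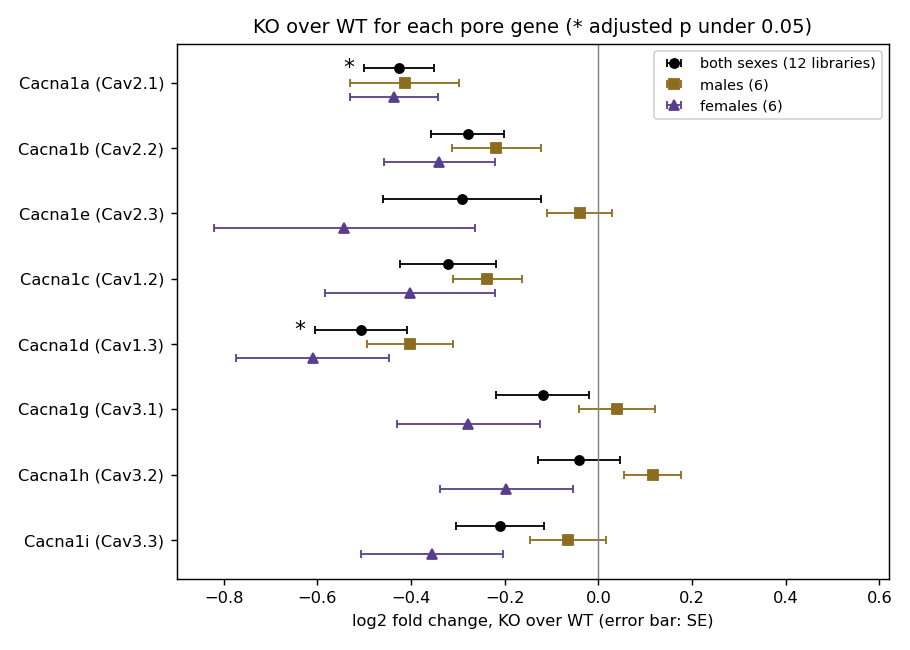
log2 fold change of each pore gene, KO over WT, with its SE, over both sexes (circles, 12 libraries), in males (squares, 6) and in females (triangles, 6). Stars mark Cacna1a (-0.43) and Cacna1d (-0.51) over both sexes; the female estimates lie left of the male ones for all 8 genes.

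The sexes were also compared separately, as the study did. None of the 8 genes passed the test in males, where 0.461% of 18671 genes were called, or in females, where 0.016% of 18709 genes were called. In males 4 of the 8 were lower at an unadjusted p under 0.05, against 6.93% of all genes, and in females 4 of the 8, against 3.89%. Every KO library lay below every WT library in males for Cacna1a, Cacna1b, Cacna1c and Cacna1d, against 8.44% of all genes, and in females for Cacna1a, Cacna1b and Cacna1d, against 6.24%. In males 6 of the 8 fold changes lay below 0 and those of Cacna1g and Cacna1h were 0.04 and 0.12, while in females all 8 lay below 0. The median log2 fold change of the 8 genes was -0.14 in males and -0.38 in females. DESeq2's Wald test called Cacna1a (adjusted p = 0.0484) and Cacna1d (adjusted p = 0.0134) in males and Cacna1a (adjusted p = 0.0146) in females. It also called far more of all genes than edgeR did. Of 18671 genes in males DESeq2 called 354 lower and 111 higher, and of 18709 in females 124 lower and 48 higher.

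Whether the KO effect differed between females and males was tested by the interaction of genotype and sex. The female effect minus the male effect was below 0 for all 8 genes, between -0.50 for Cacna1e and -0.02 for Cacna1a, but none passed the test (edgeR adjusted p between 0.910 and 0.994) and none had an unadjusted p under 0.05. The Cacna1e difference had a 95% interval of -1.19 to 0.19. Over all 19767 genes the interaction called 0%, with 879 genes at an unadjusted p under 0.05, and DESeq2 called 3 lower and 2 higher. A difference between the sexes in the response of these genes was not detectable with 3 libraries a group. The 11 Hox markers of hindbrain and spinal tissue all lay below 0 in males (median -2.34) and all above 0 in females (median 0.76), none passing the test. KO males held 0.0891, 13.2 and 0 CPM of Hoxa5, against 0.873, 43.6 and 53.9 CPM in WT males. KO females held 0.181, 46.0 and 38.5 CPM, against 0.127, 0.0741 and 53.3 CPM in WT females. How far this tissue entered the shift between the sexes was not tested.

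To compare the pores with one another, CPM was divided by the merged exon length of each gene. Over the WT libraries Cacna1b came first at 12.5 ± 2.10 CPM per kb, followed by Cacna1h at 10.7 ± 2.37, Cacna1g at 8.53 ± 1.81, Cacna1e at 6.23 ± 1.97, Cacna1a at 5.31 ± 0.951, Cacna1c at 3.72 ± 0.742, Cacna1d at 2.68 ± 0.550 and Cacna1i at 2.64 ± 0.365 (SD, n = 6). The ranges of each neighbouring pair in this order overlapped across WT brains. Within every WT library, though, Cacna1b lay above Cacna1h, Cacna1h above Cacna1g and Cacna1g above Cacna1e. Cacna1a likewise lay above Cacna1c, and Cacna1c above Cacna1d, in every WT library. The pairs Cacna1e with Cacna1a and Cacna1d with Cacna1i changed places between WT libraries. In KO brains Cacna1b was at 10.3 ± 0.794 CPM per kb, Cacna1h at 10.2 ± 1.15, Cacna1g at 7.79 ± 0.732, Cacna1e at 5.03 ± 0.628, Cacna1a at 3.95 ± 0.598, Cacna1c at 2.97 ± 0.326, Cacna1i at 2.29 ± 0.179 and Cacna1d at 1.88 ± 0.172 (SD, n = 6). The KO order differed only in that Cacna1d came after Cacna1i, a pair whose ranges overlapped. In KO the ranges did not overlap between Cacna1h and Cacna1g, Cacna1g and Cacna1e, or Cacna1c and Cacna1i. By this measure both genotypes had Cav2.2 and the T-type pores Cav3.2 and Cav3.1 as the most abundant transcripts per length at this stage. The order depends on the length used, which counts every annotated exon whether or not it is expressed. It was 25.23 kb for Cacna1e and 21.19 kb for Cacna1c, against 9.76 to 12.62 kb for the others. By CPM without this division, Cacna1e had the highest mean, at 157.2 in WT and 126.8 in KO brains.

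**Figure D3:**
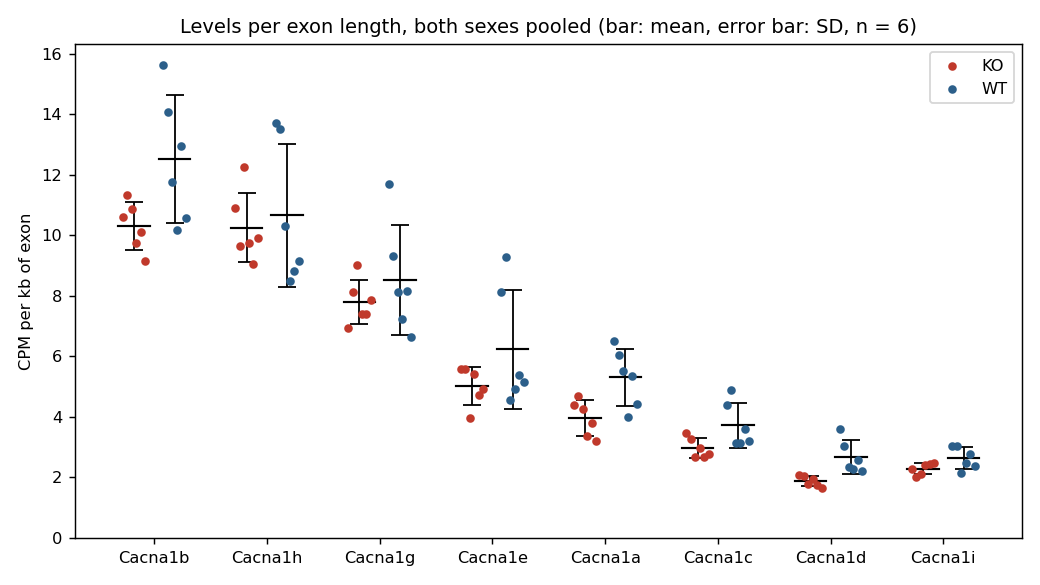
CPM per kb of merged exon for the 8 pore genes in the order of their WT mean, with each library as a point, the mean (line) and SD (error bars) of 6 KO (red) and 6 WT (blue) libraries. Cacna1b is highest (10.3 in KO, 12.5 in WT) and Cacna1d and Cacna1i are lowest.

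As shares of the summed level per kb of the 8 genes, the T-type genes made up 45.7 ± 2.83% in KO and 41.8 ± 1.22% in WT brains, the Cav2 genes 43.4 ± 2.15% in KO and 46.0 ± 1.04% in WT brains, and the L-type genes 10.9 ± 0.884% in KO and 12.2 ± 0.460% in WT brains (SD, n = 6). In males the T-type share was 45.4%, 45.0% and 48.3% in KO, against 42.6%, 39.8% and 41.5% in WT brains, without overlap. In females it was 43.5%, 42.4% and 49.9% in KO, against 42.6%, 41.0% and 43.0% in WT brains, with overlap. Shares of one sum are not independent of each other, their sizes depend on the merged exon lengths, and no test was made on them.

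The remaining pore genes of the family were barely counted. Cacna1f (Cav1.4, the retinal L-type pore) had 0, 4 and 0 counts in KO males, against 0 in all 3 WT males, and 2, 5 and 0 counts in KO females, against 5, 7 and 9 in WT females, too few to be tested. Cacna1s (Cav1.1, the skeletal muscle pore) had 8, 23 and 40 counts in KO males, against 12, 15 and 8 in WT males, and 14, 14 and 11 in KO females, against 8, 15 and 16 in WT females (log2 fold change 0.58, SE 0.392, edgeR adjusted p = 0.568). The 7 muscle markers summed to 10.1 to 24.5 CPM in KO and 11.0 to 21.1 CPM in WT libraries, and the 5 retinal markers to 25.0 to 47.7 CPM in KO and 15.4 to 59.5 CPM in WT libraries.

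Cav1 and Cav2 pores reach the membrane with beta and alpha2delta subunits. The gamma family includes both a calcium channel subunit and the TARPs, which mainly traffic AMPA receptors. Of 16 such genes, 15 were tested and none was called lower or higher. By edgeR 12 of the 15 fold changes lay below 0, against 49.3% of all genes, 6 were lower at an unadjusted p under 0.05, against 7.9% of all genes, and the median log2 fold change was -0.17. Of the most abundant, Cacng4 (a TARP) averaged 238.8 ± 16.1 CPM in KO and 270.7 ± 13.0 CPM in WT brains (SD, n = 6, log2 fold change -0.19, SE 0.0545, edgeR adjusted p = 0.124). Cacnb3, a beta subunit that carries pores to the membrane, averaged 150.2 ± 15.8 CPM in KO and 146.7 ± 7.75 CPM in WT brains (log2 fold change 0.03, edgeR adjusted p = 0.902). Cacna2d1, an alpha2delta subunit and the target of gabapentin, averaged 120.2 ± 8.93 CPM in KO and 124.2 ± 18.1 CPM in WT brains (log2 fold change -0.05, edgeR adjusted p = 0.857). Cacng7 averaged 88.1 ± 9.23 CPM in KO and 98.6 ± 7.61 CPM in WT brains (log2 fold change -0.17, SE 0.0755, edgeR adjusted p = 0.356). The TARP genes Cacng3, Cacng8 and Cacng2, chosen after their values were seen, came nearest to the threshold, with log2 fold changes of -0.42, -0.28 and -0.23 and edgeR adjusted p of 0.0602, 0.0613 and 0.0885. DESeq2 called 4 lower, Cacng2, Cacng3, Cacng4 and Cacng8, all of them TARPs and none a beta or alpha2delta subunit.

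Proteins that bind or set the channels were looked at next. Of 17 regulators listed, 16 were found under their symbols and tested, 2 fell, none rose and 14 did not pass the test (median log2 fold change -0.10), against 1.52% of all genes called lower. Both that fell were RIMs, active-zone scaffolds that tether Cav2 channels near docked vesicles. Rims1 had 39.6 to 44.0 CPM in KO males, against 52.1 to 68.4 CPM in WT males, and 36.5 to 46.0 CPM in KO females, against 57.8 to 63.7 CPM in WT females. No KO library of either sex reached any WT library, which held for 1.24% of all genes tested. The log2 fold change was -0.53 (SE 0.0747, edgeR adjusted p = 0.00214). Rims2 averaged 50.9 ± 4.40 CPM in KO and 63.0 ± 4.85 CPM in WT brains (SD, n = 6, log2 fold change -0.31, SE 0.0701, edgeR adjusted p = 0.0396). Calm3, whose product mediates calcium feedback on the channels, was the most abundant of the list and had a log2 fold change of -0.13 (SE 0.0708, edgeR adjusted p = 0.470).

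Calcium that enters through these pores opens BK and SK potassium channels. Of 7 genes for such channels, 1 rose and 6 did not pass the test, against 0.374% of all genes called higher. Kcnn1, the SK1 pore, had 20.6 to 27.2 CPM in KO males, against 14.6 to 16.5 CPM in WT males, and 20.6 to 29.0 CPM in KO females, against 17.5 to 19.3 CPM in WT females. Its log2 fold change was 0.50 (SE 0.0993, edgeR adjusted p = 0.0205). Kcnma1, the BK pore, averaged 30.6 ± 3.26 CPM in KO and 39.1 ± 5.80 CPM in WT brains (SD, n = 6, log2 fold change -0.36, SE 0.103, edgeR adjusted p = 0.117). Kcnn3 (SK3) and Kcnn2 (SK2) had log2 fold changes of -0.08 and -0.05 (edgeR adjusted p = 0.767 and 0.906). The neuronal and progenitor marker lists had no gene called in either direction. Over both sexes 6 of the 8 neuronal markers lay below 0 (median log2 fold change -0.02), and all 6 progenitor markers lay above 0 (median 0.12). At an unadjusted p under 0.05, Stmn2 (-0.20) was lower and Elavl4 (0.15) higher over both sexes. In males Snap25 (-0.38) and Stmn2 (-0.30) were lower and Elavl4 (0.17) and Nes (0.26) higher at that limit. These were named after their values were seen, and in females no gene of either list reached that limit. Their part in the differences of the pore genes was not tested.

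**Figure D4:**
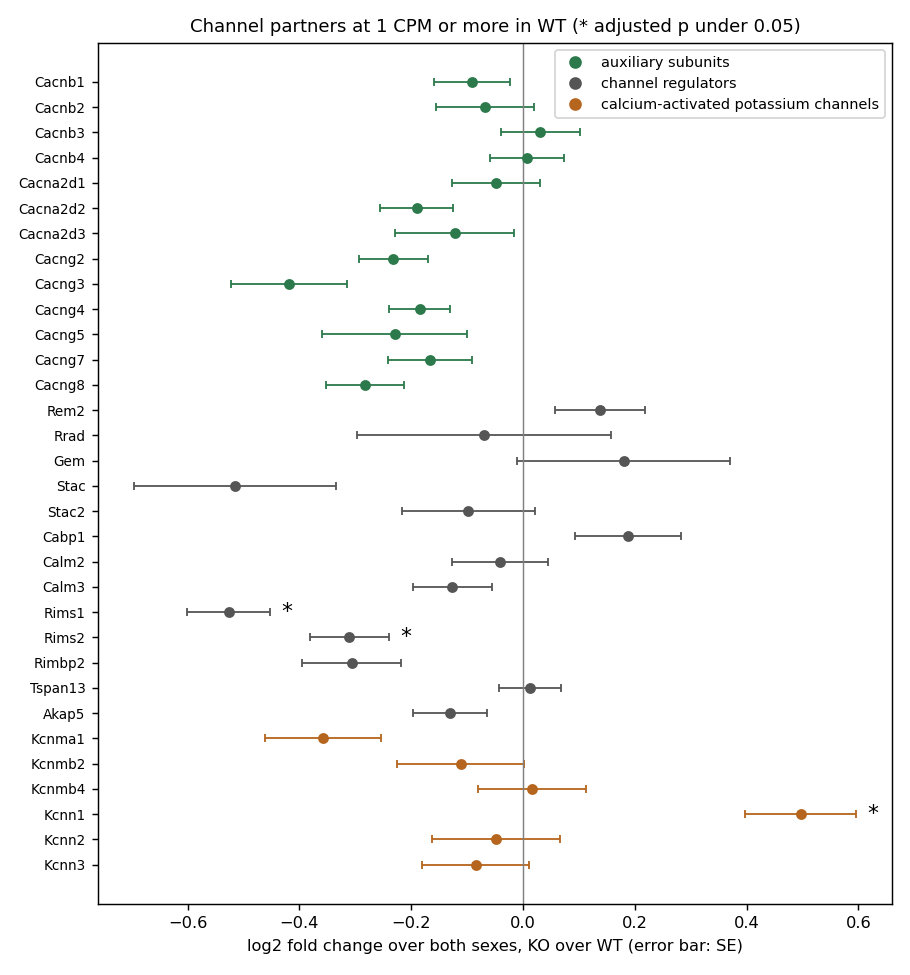
log2 fold change over both sexes, KO over WT, with its SE, for 32 auxiliary subunit, regulator and calcium-activated potassium channel genes at 1 CPM or more in WT. Stars mark Rims1 (-0.53), Rims2 (-0.31) and Kcnn1 (0.50); no auxiliary subunit is starred.

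The genes most like the 4 pore genes of widest range were found from the root mean square (RMS) difference of centred log2 CPM over the 12 libraries, among 11928 genes of at least 5 CPM. Cacna1e was nearest to Nav1 (RMS 0.0963), Tanc2 (0.125) and Cacna1c (0.126). Cacna1d was nearest to Cnksr2 (RMS 0.0945), Alk (0.120) and Tenm1 (0.130). For Cacna1a the nearest were Iqsec3 (RMS 0.103), Kndc1 (0.112) and Disp2 (0.115), and for Cacna1c they were Pura (RMS 0.0961), Gpr26 (0.0987) and Dagla (0.101). Between members the closest pairs were Cacna1a with Cacna1b (RMS 0.120) and Cacna1c with Cacna1e (0.126), and the farthest was Cacna1a with Cacna1e (0.280). The likeness is a description over libraries that differ in genotype, depth, sex and tissue makeup, and these differences enter it.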

How the data were processed

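RNA-seq was performed on E15.5 brain of 6 KO and 6 WT mice, 3 of each sex. Ribosomal RNA was depleted with either of 2 kit versions and libraries were directional; which library had which kit or sequencer is not given in the sources used here. The authors trimmed reads, removed adapters with cutadapt 2.6, aligned to mm10 with HISAT2 2.1.0 and assigned reads with StringTie 2.0.6, and deposited whole-number counts per gene, 1 table per sex, with no normalization. No column of the authors' own comparisons was used.

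From these, genes were filtered with filterByExpr (minimum count 10), scaled by TMM and tested with edgeR 4.0.16 (quasi-likelihood, R 4.3.3) and Benjamini-Hochberg adjustment at 0.05: KO over WT with sex as covariate over 12 libraries, within each sex, and as an interaction. Whsc1 was left out of the counts of genes called. SE is the log2 fold change over the square root of F, and 95% intervals use its degrees of freedom. CPM used all 12 libraries and log2 CPM a prior count of 2. Exon lengths came from GENCODE M21. The scripts were tested on simulated counts. Alternatives were DESeq2 1.42.0, a likelihood ratio test, RLE factors, 2 other filters, totals without small, mitochondrial and histone RNAs, a Hox covariate, libraries split at 1 CPM of Hoxa5, a replicate block and leaving out libraries.

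The genes and lists were chosen with earlier results of these data known. Genes named were the 8 members, Cacna1f, Cacna1s, the called members of 3 lists (auxiliary subunits, channel regulators and calcium-activated potassium channels) filled to 4 with their most abundant members, and the 3 genes most like each of 4 members; others are said to have been chosen after their values were seen. The values of 1 regulator that this rule names are not reported here.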

Additional observations from a re-analysis of the deposited data

How the results depend on the processing

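Over both sexes, Cacna1a kept its sign in all 23 alternatives, with log2 fold changes between -0.46 and -0.33, and was called in 21; Cacna1d kept its sign in all 23 (-0.56 to -0.35) and was called in 18. The 2 genes called lower became 0 among libraries under 1 CPM of Hoxa5 and 0 among those over 1 CPM, and between 1 and 3 when a library was left out (1 without KO female 3, WT male 2 or KO male 3, where Cacna1d was lost). Calls over all genes also fell in the Hoxa5 subsets, to 31 lower and 6 higher under 1 CPM and 3 lower and 8 higher over 1 CPM, against 300 and 74. None of the 8 genes was called higher over both sexes, or in the interaction, in any alternative run. Of the auxiliary subunits, none called in the main test, DESeq2's Wald test called 4, the likelihood ratio test 1 (Cacng3), the Hox covariate 1 (Cacng8), and leaving out a library 0 to 1 (Cacng3, without WT male 1). The Hox covariate moved values within a sex that were not called, by over 1.5 times in males for Cacna1a (-0.20), Cacna1b (-0.08) and Cacna1g (0.0076), and in females for Cacna1c (-0.18), Cacna1e (-0.18), Cacna1h (-0.07) and Cacna1i (-0.17). DESeq2 called 2 of the 8 genes in males and 1 in females, against 0 for both with edgeR. Over all genes of both sexes DESeq2 called 587 lower and 218 higher, and the likelihood ratio test 446 lower and 108 higher, against 300 and 74.

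Signs that turned belonged to genes that were not called. When a library was left out, the log2 fold change of Cacna1h over both sexes lay between -0.078 and 0.014 (0.0074 without WT female 1, 0.0081 without WT female 2, 0.014 without KO female 2); it was 0.11 without both of those WT female libraries and 0.051 among libraries over 1 CPM of Hoxa5. That of Cacna1g was 0.025 without both WT female libraries and 0.039 among libraries over 1 CPM of Hoxa5, and that of Cacna1e was 0.027 without both. With a male library left out, Cacna1g in males lay between -0.031 (without WT male 3) and 0.12, and Cacna1e between -0.10 and 0.0050 (without KO male 2).

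Whether the replicate numbers pair the samples is not given in the sources used here. Deviations from the group means of same-numbered KO and WT libraries correlated at -0.01, 0.30 and -0.15 in males and 0.17, -0.05 and 0.28 in females. Those of differently numbered libraries correlated between -0.24 and 0.30 in males and between -0.46 and 0.39 in females. With 3 libraries a group, these correlations cannot decide on pairing. With the replicate number as a block, 2 genes were again called lower, Cacna1a (log2 fold change -0.42, edgeR adjusted p = 0.00680) and Cacna1d (-0.50, edgeR adjusted p = 0.0150). In all, 227 genes were lower and 44 higher, against 300 and 74 without the block. In males the block called 219 genes lower and 70 higher, against 63 and 23, and in females 0, against 1 lower and 2 higher. No call among the 8 changed in either sex, with Cacna1a in males at an edgeR adjusted p of 0.0531, against 0.249. With 3 libraries a group the intervals within a sex were wide, the widest being that of Cacna1e in females (95% interval -1.20 to 0.12).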

Other observations

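The span of the genes, a property that the choice of members did not use, was set beside the calls after the data were seen. Of 2349 protein-coding genes tested that span at least 100 kb, as Cacna1a, Cacna1b, Cacna1c, Cacna1d, Cacna1e and Cacna1i do, 166 (7.07%) were called lower and 6 (0.255%) higher in KO over both sexes by edgeR, with a median log2 fold change of -0.06 and 65.8% below 0. Of 13051 shorter genes, 116 (0.889%) were called lower and 61 (0.467%) higher, with a median of 0.0069 and 47.8% below 0. The members under 100 kb, Cacna1g and Cacna1h, had the fold changes nearest to 0 of the 8 (-0.12 and -0.04). Whether span and fold change are tied among the pore genes was not tested.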
